A study of Ovis aries with 6 samples.

Results

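The genes described here encode the pyruvate dehydrogenase complex and the enzymes that switch it off and on, in the longissimus dorsi muscle of QHMM and STH sheep. They are the 10 genes PDHA1, PDHB, DLAT, DLD, PDHX, PDK1, PDK2, PDK3, PDK4 and PDP1, chosen by name from a table of 23144 genes. Of these, 9 were found by symbol, and PDHX was found as the row LOC101105774 through its RefSeq gene ID. All 10 passed the filter for low counts.

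The pyruvate dehydrogenase complex sits in the mitochondrial matrix and turns pyruvate into acetyl-CoA, the step that joins glycolysis to the citrate cycle. Pyruvate dehydrogenase kinases phosphorylate its E1 component and switch the complex off, and pyruvate dehydrogenase phosphatases remove the phosphate and switch it on again. In skeletal muscle PDK4 is known as the kinase whose transcript accumulates during fasting, when muscle burns fatty acids and spares glucose.

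The study set Qianhua Mutton Merino (QHMM), a breed for meat and wool, against the local Small Tail Han (STH) breed, to look for transcripts tied to muscle growth. The animals of both breeds were 1-year-old females, housed alike and fed without restriction. The methods mention a fast ahead of slaughter for the live weight measurement. Muscle of 3 QHMM and 3 STH animals was sequenced, with 1 library per animal. Reads counted on genes numbered 14334544, 12980936 and 12382244 for QHMM replicates 1, 2 and 3, and for the STH replicates in the same order 13107349, 10982191 and 13546561. Values of single animals are given in this order throughout. The 7 skeletal muscle markers looked for were all abundant, with ACTA1, skeletal muscle alpha-actin, the highest at a mean of 54470 RPKM, a read count corrected for library depth and the length of the gene.

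PDK4 was up-regulated 35.7-fold in STH vs. QHMM, and PDP1, the phosphatase that opposes the kinases, was down-regulated. The other kinases and the 5 subunits of the complex were not past the threshold, although all 5 subunits had lower mean counts in STH. A gene was called when its FDR from edgeR's quasi-likelihood F test was under 0.05 and it differed by more than 1.5-fold in either direction. By this rule 2 of the 10 genes were called, where 3.45% of the 12506 tested genes were. The 1 up-regulated gene stands beside 1.62% of the tested genes, and the 1 down-regulated gene beside 1.83%. The normalised counts of the breeds did not overlap for 5 of the 10 genes (PDHA1, PDHB, DLAT, PDK4 and PDP1), against 24.7% of the tested genes.

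The normalised read count (scaled by TMM) of PDK4 was 474, 2553 and 164 in the QHMM animals, against 34022, 41042 and 38663 in the STH animals. Every STH animal lay far above every QHMM animal, and the lowest STH count was 13.3 times the highest QHMM count. The spread was not alike in the breeds. The QHMM counts covered a 15.5-fold range, with replicate 2 high and replicate 3 low, while the STH counts lay within a 1.21-fold range. The log2FoldChange was 5.16 (SE 0.86, edgeR FDR = 0.0137), and the mean count was 1064 ± 1299 in QHMM (SD, n = 3) and 37909 ± 3571 in STH (SD, n = 3). Only 3 tested genes had a larger log2FoldChange. Without QHMM replicate 1 the log2FoldChange was 4.78 and the FDR was 0.0506, so that the call was lost, and without QHMM replicate 2 the log2FoldChange was 6.89. Over all alternatives the FDR of PDK4 lay between 4.5e-05 and 0.0506.

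As a share of all counted reads, PDK4 took 0.00370% (95% Wilson interval 0.00340 to 0.00403), 0.0168% (0.0161 to 0.0175) and 0.00131% (0.00112 to 0.00153) of the QHMM libraries. In the STH libraries it took 0.315% (0.312 to 0.318), 0.350% (0.346 to 0.353) and 0.255% (0.252 to 0.258). These intervals cover counting error only, and they are narrow beside the differences between animals. Ranked by RPKM within each library, which corrects for gene length, PDK4 was number 2200, 574 and 4691 in QHMM and number 39, 36 and 45 in STH. PDK4 was thus among the 45 most abundant genes of every STH library. For comparison, PDHA1, the catalytic subunit that the kinases phosphorylate, was number 430, 350 and 273 in QHMM and number 451, 441 and 531 in STH.

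PDK2, the most abundant kinase of QHMM muscle, had 3803, 6047 and 4068 normalised counts in QHMM and 3092, 4002 and 4096 in STH. The breeds overlapped, and PDK2 was not called (log2FoldChange -0.31, SE 0.26, FDR = 0.559). With 1 library left out its log2FoldChange lay between -0.46, without QHMM replicate 1, and -0.07, without QHMM replicate 2. PDK1, the kinase known as a target of the hypoxia response, had 175, 162 and 249.7 normalised counts in QHMM and 213, 338 and 149 in STH. The breeds overlapped here too, with the highest and the lowest count both in STH, and the log2FoldChange of 0.25 (SE 0.32, FDR = 0.713) turned to -0.13 without STH replicate 2 (FDR = 0.921, the highest of its alternatives, where the lowest was 0.407). PDK3, usually a minor kinase in muscle, had 141, 235 and 239.6 normalised counts in QHMM and 64.4, 169.9 and 41.4 in STH. STH replicates 1 and 3 lay below all QHMM animals, but STH replicate 2 lay among them. It was not called with all libraries (log2FoldChange -1.16, SE 0.45, FDR = 0.193), but it was without STH replicate 2, with -1.96 and an FDR of 0.0265. Its FDR in the other alternatives reached up to 0.376.

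Because RPKM values are scaled by gene length, the kinases can be set against each other within a library. PDK4 made up 14.5%, 36.7% and 5.05% of the summed RPKM of the 4 kinases in QHMM and 93.8%, 93.1% and 93.0% in STH. The share was 18.7 ± 16.2% in QHMM (SD, n = 3) and 93.3 ± 0.403% in STH (SD, n = 3), and no QHMM animal came near the STH values. PDK2 held the largest share in each QHMM animal, at 79.5%, 59.4% and 85.3%, and only 5.82%, 6.20% and 6.73% in STH. The leading kinase transcript was therefore PDK2 in all 3 QHMM animals and PDK4 in all 3 STH animals. The summed RPKM of the 4 kinases was 160.2, 287 and 163 in QHMM and 2103, 2355 and 1717 in STH. Without PDK4, the remaining kinases summed to 137, 182 and 154 RPKM in QHMM and to 131, 162 and 119.7 RPKM in STH, with overlap between the breeds. PDK1 and PDK3 were minor in every library, each with at most 6.48% of the sum.

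**Figure D1:**
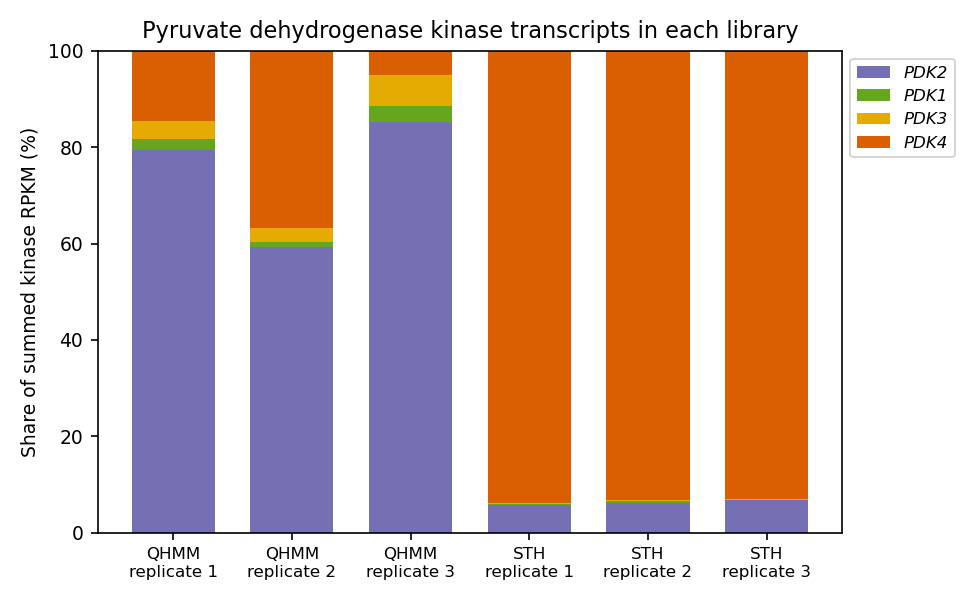
Stacked bars give the share of PDK1, PDK2, PDK3 and PDK4 in their summed RPKM, in percent, for each of the 3 QHMM and 3 STH libraries. PDK4 takes 5.05% to 36.7% of the bar in QHMM and 93.0% to 93.8% in STH, and PDK2 fills most of the rest.

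PDP1 encodes the catalytic subunit of the calcium-stimulated pyruvate dehydrogenase phosphatase, and it was down-regulated in STH. Its normalised count was 769, 629 and 785 in the QHMM animals, against 413, 190.2 and 189 in the STH animals. All STH animals were below all QHMM animals, and the lowest QHMM count was 1.52 times the highest STH count. STH replicate 1 lay between the QHMM animals and the other STH animals, at 2.17 times the higher of the latter. The mean went from 727 ± 85.9 in QHMM (SD, n = 3) to 264 ± 129 in STH (SD, n = 3), with a log2FoldChange of -1.46 (SE 0.31, FDR = 0.0352). Leaving out 1 library mostly ended the call, which was lost without QHMM replicate 1 (FDR = 0.0887), QHMM replicate 2 (FDR = 0.0654), QHMM replicate 3 (FDR = 0.0962), STH replicate 2 (FDR = 0.0926) or STH replicate 3 (FDR = 0.0780). In those fits the log2FoldChange lay between -1.55, without QHMM replicate 2, and -1.27, without STH replicate 3. Without STH replicate 1 the log2FoldChange was -1.95 (FDR = 0.00408), and over all alternatives the FDR lay between 0.000398 and 0.185. PDP2, the other phosphatase catalytic subunit, was rare, with 42.0, 16.4 and 25.4 normalised counts in QHMM and 22.3, 25.6 and 12.3 in STH.

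Kinases and phosphatases act on the same sites, so their transcripts were set against each other within each library. The summed RPKM of the 4 kinases was 9.86, 27.4 and 10.1 times that of PDP1 and PDP2 in QHMM and 204, 456 and 497 times in STH. On the log2 scale the ratio was 3.80 ± 0.84 in QHMM (SD, n = 3) and 8.49 ± 0.71 in STH (SD, n = 3). The highest QHMM ratio belonged to replicate 2, the QHMM animal with the most PDK4, and the lowest STH ratio to replicate 1, the STH animal with the most PDP1. These are transcript ratios. Phosphorylation of the complex and the activity of its enzymes were not measured.

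The E1 component, which decarboxylates pyruvate, is built from an alpha subunit encoded by PDHA1 and a beta subunit encoded by PDHB. PDHA1 had 2876, 3976 and 4910.4 normalised counts in QHMM and 2495, 2702 and 2610.2 in STH. PDHB had 1965, 2238 and 2719 normalised counts in QHMM and 1398, 1334 and 1545 in STH. In both genes the 3 STH animals lay close together below the 3 QHMM animals, and QHMM replicate 3 was the highest. The log2FoldChange was -0.59 for PDHA1 (SE 0.25, FDR = 0.228) and -0.69 for PDHB (SE 0.22, FDR = 0.116), neither past the FDR threshold. For PDHA1 the separation depended on the scaling. In RPKM it had 158, 184 and 274 in QHMM and 162, 162 and 121 in STH, so that 2 STH animals were above QHMM replicate 1.

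DLAT encodes the E2 component, the dihydrolipoamide acetyltransferase core that hands the acetyl group to coenzyme A. It had 1287, 1674 and 1459 normalised counts in QHMM and 952, 745 and 763 in STH, again without overlap. Its mean was 1473 ± 194 in QHMM (SD, n = 3) and 819.7 ± 115 in STH (SD, n = 3), and its log2FoldChange of -0.85 (SE 0.22, FDR = 0.0607) was the most negative of the 5 subunits. The FDR lay just above the threshold. DESeq2 called DLAT (FDR = 0.0126) and also PDHB (FDR = 0.0484), and edgeR without a filter for low counts called DLAT (FDR = 0.0475). Over all alternatives the FDR lay between 0.0126 and 0.201 for DLAT and between 0.0484 and 0.305 for PDHB.

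DLD encodes the E3 component, dihydrolipoamide dehydrogenase, which the complex shares with the other 2-oxo acid dehydrogenases. It had 1661, 2073 and 2448 normalised counts in QHMM and 1623, 1965 and 1475 in STH. PDHX encodes the protein that anchors E3 to the core, and it had 847, 1504 and 1209 normalised counts in QHMM and 929, 1158 and 799.8 in STH. The breeds overlapped in both genes. The log2FoldChange was -0.29 for DLD (SE 0.23, FDR = 0.554) and -0.30 for PDHX (SE 0.26, FDR = 0.574). Both were most negative without QHMM replicate 1, with -0.44 for DLD and -0.52 for PDHX, and nearest to 0 without QHMM replicate 3 for DLD (-0.14) and without QHMM replicate 2 for PDHX (-0.09). The median log2FoldChange of the 5 subunits was -0.59, and that of all tested genes was 0.02. With 1 library left out the median of the subunits lay between -0.79, without QHMM replicate 1, and -0.395, without QHMM replicate 3. Before adjustment, 3 of the 5 subunits (PDHA1, PDHB and DLAT) had an edgeR p below 0.05, as did 19.2% of all tested genes.

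The subunits were also set against PDHA1 within each library. The log2 ratio of PDHB to PDHA1 in RPKM was -0.79 ± 0.17 in QHMM and -0.91 ± 0.13 in STH (SD, n = 3 each). That of DLAT was -2.32 ± 0.32 and -2.61 ± 0.25. The ratio of DLD was -1.74 ± 0.11 in QHMM and -1.47 ± 0.18 in STH, and that of PDHX was -2.57 ± 0.31 and -2.29 ± 0.24. PDHB and DLAT thus had slightly lower and DLD and PDHX slightly higher mean ratios to PDHA1 in STH, and the libraries of the breeds overlapped for all 4 ratios. PDK4 moved on another scale, with 0.147, 0.573 and 0.0299 times the RPKM of PDHA1 in QHMM and 12.2, 13.6 and 13.2 times in STH.

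Ordered by mean RPKM, QHMM muscle had PDHA1 (205), PDK2 (145), PDHB (117), DLD (60.7), PDK4 (45.6), DLAT (40.1), PDHX (34.2), PDP1 (13.01), PDK3 (8.39) and PDK1 (3.88). In this order PDHB lay above DLD, PDHX above PDP1 and PDK3 above PDK1 without overlap of the 3 animals, and the other neighbours overlapped. STH muscle had PDK4 (1921), PDHA1 (148), PDK2 (128), PDHB (78.2), DLD (54.6), PDHX (31.0), DLAT (24.8), PDP1 (5.31), PDK1 (5.11) and PDK3 (4.27). There, PDK4 lay above PDHA1, PDK2 above PDHB, PDHB above DLD and DLAT above PDP1 without overlap. PDK4 was thus number 1 in STH. Its place as number 5 in QHMM rested on replicate 2, with 105 RPKM the only QHMM animal where PDK4 lay above DLAT. The order of PDHA1, PDK2, PDHB and DLD was the same in both breeds.

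**Figure D2:**
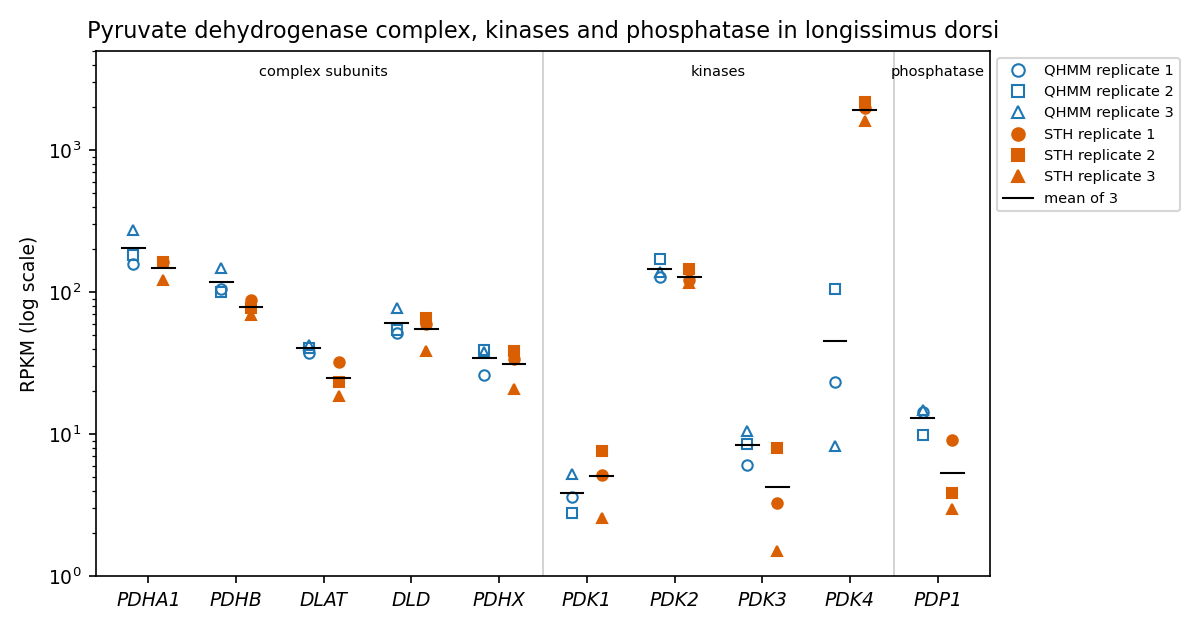
Each symbol is the RPKM of a gene in 1 library, on a log axis, with open blue symbols for 3 QHMM and filled orange symbols for 3 STH animals, and black lines for the means. PDK4 lies between 8.20 and 105 RPKM in QHMM and between 1597 and 2193 in STH. The breeds overlap for the other kinases, PDHA1, DLD and PDHX. PDHB, DLAT and PDP1 lie lower in STH without overlap, with DLAT at 37.0 to 42.7 RPKM in QHMM and 18.5 to 32.4 in STH.

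The gene table also holds loci that resemble PDHA1 and PDHB. Only unique reads were kept, and how reads of near-identical copies were divided is not given in the sources used here. LOC101103029, which resembles PDHA1, had 473, 503 and 640 read counts in QHMM and 343, 366 and 298 in STH, between 11.4% and 14.8% of the count of PDHA1. LOC101120918, which resembles PDHB, had between 10.2% and 15.9% of the count of PDHB. Both had lower mean normalised counts in STH, like the genes they resemble. When the reads of such loci were added to the parent gene, an alternative chosen after seeing the data, the log2FoldChange was -0.61 for PDHA1 (FDR = 0.214) and -0.66 for PDHB (FDR = 0.129). Whether reads of these loci belong to PDHA1 and PDHB was not tested, and the values of both genes may be uncertain to that extent. The locus resembling PDK1 had at most 4 counts in any library, and the one resembling PDK3 had none.

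The genes whose profile over the 6 libraries was nearest to that of PDK4 were RASD1, FKBP5, ARRDC2, CA12 and GADD45G, among 11262 candidates. Likeness to PDK4 was measured as the root mean square difference of centred log2 values, which was 1.07 for RASD1 and 1.51 for GADD45G. The choice used these same 6 libraries, so a breed difference like that of PDK4 follows from it and is no separate result. RASD1, a small GTPase induced by dexamethasone, had 457, 1161 and 30.5 normalised counts in QHMM against 4580.2, 4817 and 6829 in STH, with the QHMM animals in the same order as for PDK4. It was not called (log2FoldChange 3.30, FDR = 0.0647). FKBP5, an immunophilin of the glucocorticoid receptor complex, had 116, 459.98 and 254 in QHMM and 3836, 7921 and 6332 in STH. It was up-regulated, with a log2FoldChange of 4.45 (SE 0.50, FDR = 0.00345), and so were ARRDC2 (3.56, and 4.92 without QHMM replicate 2), CA12 (3.81) and GADD45G (4.54, and 5.19 without QHMM replicate 1). FKBP5, CA12 and GADD45G were called with any 1 library left out, and ARRDC2 in 4 of those 6 fits.

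By the same measure, which grows with the spread of a gene, MYLK3, a myosin light chain kinase, differed from PDP1 by 0.121, and LOC101113965, AZIN1 and AMPD1 differed by up to 0.168. These 4 genes were down-regulated in STH, with log2FoldChange values of -1.49, -1.54, -1.41 and -1.51. They were chosen for likeness to PDP1 in the same libraries, so a like breed difference and order of animals largely follow from the choice. AMPD1, the muscle AMP deaminase, had 7894, 7020.3 and 9885 normalised counts in QHMM against 3902, 2256 and 2535 in STH, with STH replicate 1 above the other STH animals as for PDP1. LOC101113965 was called with any 1 library left out, AMPD1 in 2 of those 6 fits, and MYLK3 and AZIN1 in 1. Near to the mean profile of the 5 subunits were GHITM, APOO, LOC101102211 and LOC101108462, at 0.0551 to 0.0928, and none of them was called.

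Beyond the 10 genes, 9 further genes that supply or regulate the complex were tested, with a median log2FoldChange of -0.23 (-0.12 without QHMM replicate 2). None was called by edgeR, DESeq2 or limma-trend. Of the 9 genes, 2 had an unadjusted edgeR p below 0.05, a share close to the 19.2% of all tested genes. MPC1 and MPC2, which form the carrier that brings pyruvate into the mitochondrion, had log2FoldChange values of -0.52 (FDR = 0.238) and -0.16 (FDR = 0.756). PDPR, the regulatory subunit of the phosphatase, had -0.45 (FDR = 0.395), and LIAS, which makes the lipoyl group carried by E2, had -0.17 (FDR = 0.713).

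The sister complexes for other 2-oxo acids share DLD with the pyruvate dehydrogenase complex. Of their 8 tested genes only PPM1K was called, where 3.45% of all tested genes were. The median log2FoldChange of the 8 was -0.51 (-0.30 without QHMM replicate 2). PPM1K is the phosphatase that activates the branched-chain complex, as PDP1 does for pyruvate dehydrogenase. Its normalised count was 876, 658 and 1109 in QHMM, against 248, 45.9 and 58.3 in STH, with STH replicate 1 the highest STH animal as for PDP1. Its log2FoldChange was -2.89 (SE 0.55, FDR = 0.0225), and -4.09 without STH replicate 1. It was called in 3 of the 6 fits that left out 1 library. BCKDK, the kinase of that complex and a relative of the PDK genes, had -0.26 (FDR = 0.536).

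Transcription of PDK4 is known to respond to FOXO factors, PPAR and the glucocorticoid receptor. Of 13 tested genes for such regulators, 4 were up-regulated in STH, against 1.62% of all tested genes, and 1 was down-regulated, against 1.83%. PPARA and RXRA had no matching row and are not among the 13. The median log2FoldChange of the 13 was -0.02, and it lay between -0.12 and 0.16 with 1 library left out. FOXO1 had 264, 215 and 135 normalised counts in QHMM against 962, 2385 and 1846 in STH, with a log2FoldChange of 3.08 (SE 0.37, FDR = 0.00450). FOXO3 (2.18, FDR = 0.0114), the coactivator LPIN1 (1.92, FDR = 0.0239) and the glucocorticoid-induced factor KLF15 (1.46, FDR = 0.0182) were also up-regulated, and RXRG, a partner of PPAR, was down-regulated (-2.01, FDR = 0.0143). FOXO1, FOXO3 and RXRG were called with any 1 library left out, KLF15 in 4 and LPIN1 in 3 of those 6 fits. CEBPB, the most abundant of the 13, had higher counts in every STH animal than in any QHMM animal but was not called (1.501, FDR = 0.0766). FOXO4 had -0.04 (FDR = 0.946), ESRRA, a nuclear receptor, had 0.002 (FDR = 0.997) and NR3C1, the glucocorticoid receptor, had -0.23 (FDR = 0.666).

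Calls were also made among the slow fibre genes and the adipocyte markers. Of all tested genes, 1.83% were down-regulated and 24.7% did not overlap between the breeds, in either direction. Of 9 slow fibre genes 5 were down-regulated, namely OMYHCS, MYH7B, TNNT1, TNNI1 (the row LOC101112151) and MYL2. All 9 had lower counts in every STH animal than in any QHMM animal. The median log2FoldChange of the 9 was -1.34. DESeq2 called 8 of the 9, and limma-trend called 4 on log2(RPKM + 1), 4 on log2(RPKM + 0.1) and 0 on every gene above 0. None was called by edgeR when any 1 of the QHMM libraries was left out, while the median stayed between -1.29 and -1.24 and all 9 kept an unadjusted p below 0.05. Their summed RPKM was 21090, 16620 and 24020 in QHMM against 8057, 11340 and 7356 in STH, with MYL2 the most abundant. Of 6 adipocyte markers 4 were down-regulated (ADIPOQ, PLIN1, CIDEC and LEP), with a median of -2.25 (-1.49 without QHMM replicate 1), and 1 to 4 of them were called with 1 library left out, the fewest without STH replicate 2. DESeq2 called 4 of them, and the same limma-trend settings called 2, 2 and 0. Their summed RPKM was 291, 60.3 and 101 in QHMM against 129.7, 56.3 and 42.6 in STH, and LEP was at 0 in STH replicate 2. FABP4, the most abundant of the 6, was not called (log2FoldChange -0.04, FDR = 0.980). In whole muscle, fewer cells of a type and less RNA per cell cannot be told apart. The part of slow fibres and fat cells in the differences of PDK4, PDP1 and the subunits was not tested.

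Among 9 tested fast fibre genes (median log2FoldChange -0.34, and -0.73 without STH replicate 3 or -0.53 without QHMM replicate 1) none was called by edgeR or limma-trend and 1 by DESeq2, 3 had an unadjusted edgeR p below 0.05, and the TNNT3 row was at 0. With the settings used throughout, edgeR called none of the markers of skeletal muscle (median -0.06), endothelium (-0.22), fibroblasts (-0.89), leukocytes (0.01), smooth muscle (0.14) or Schwann cells (-0.08). Of these, 1 muscle and 2 fibroblast markers had an unadjusted edgeR p below 0.05, the muscle marker being MB (the row LOC780509; log2FoldChange -1.47, FDR = 0.0683), without overlap of the breeds. The same numbers were called, all down-regulated, by DESeq2 and by edgeR without a filter for low counts or with the replicate block, and limma-trend on log2(RPKM + 1) called 1 muscle marker. With 1 library left out, the fibroblast median lay between -1.26, without STH replicate 1, and -0.55, without QHMM replicate 1, and the other medians lay between -0.43 and 0.68. Without STH replicate 3, edgeR called 1 fast fibre gene and 1 muscle marker. Of the red blood cell markers, ALAS2 and SLC4A1 summed to at most 0.404 RPKM in any library, and the haemoglobin genes were not analysed here.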

How the data were processed

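The authors filtered Ion Proton reads of poly(A) RNA, mapped them to the sheep genome Oar_v3.1, kept unique reads, and deposited raw read counts per gene beside RPKM values. The aligner and counter are not given in the sources used here. Counts were normalised by TMM and tested for breed with edgeR 4.0.16 (filterByExpr, glmQLFit, glmQLFTest, R 4.3.3), with Benjamini-Hochberg FDR over all tested genes. EBSeq, the program of the study, was not used. Alternatives used DESeq2 1.42.0 and limma 3.58.1. Levels of different genes were compared in RPKM. The PDK4 share of the kinases and the log2 ratios were compared between breeds by a 2-sided exact permutation test over animals. With 3 animals per breed its p cannot go below 0.1, so it could not pass 0.05. Over these 6 tests the adjusted permutation p was 0.3 for the PDK4 share and the kinase to phosphatase ratio. For the subunit ratios it lay between 0.3 and 0.5. Other shares and ratios are descriptions without a test. Profiles were compared for genes with a mean of at least 20 normalised counts (prior count 2). Of 164 list symbols, 7 had no matching row and were not analysed here. Symbols missing from the table were looked up in RefSeq (ARS-UI_Ramb_v3.0) or by the table's own BLAST symbol. Spreadsheet dates replaced 25 gene names, which were left out of the RPKM values. Named are the 10 genes, the called genes and up to 4 more of the highest RPKM in each list, and the 5 nearest profiles, of which 2 genes are not reported here. PDP2, fixed for the kinase to phosphatase ratio, and TNNT3, named after its values were seen, fall outside this rule. So do PPARA and RXRA, named only because they had no row. The genes and lists were chosen with earlier results of these data known.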

Additional observations from a re-analysis of the deposited data

How the results depend on the processing

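PDK4 kept its direction in all settings and its call in all but 1, with a log2FoldChange of 4.65 to 6.89 when 1 library was left out; the call was lost without QHMM replicate 1. The number of the 10 genes called was 2 with the main settings, 4 with DESeq2 and 3 with edgeR without a filter for low counts. It was 1 with limma-trend on log2(RPKM + 1), on log2(RPKM + 0.1) and on every gene above 0, and 0 to 2 with 1 library left out. PDP1 was not called by any of these limma settings (log2FoldChange -1.25, -1.42 and -1.25, FDR = 0.0853, 0.0913 and 0.185). PDK1 lay between -0.13, without STH replicate 2, and 0.49, without STH replicate 3. Of all tested genes, 432 were called with edgeR, 973 with DESeq2, 806 without a filter for low counts, 78 with limma-trend on every gene above 0 and 131 to 535 with 1 library left out. With limma-trend on log2(RPKM + 1), 61.3% of the called genes were up-regulated, against 47.0% with edgeR. On RPKM, which lacks TMM scaling, the median log2FoldChange of all genes was 0.14 with a pseudocount of 0.1, against 0.02 with edgeR, and the subunits were negative under each scaling. The PDK4 share of the kinases differed between breeds by 67.7 to 83.5 percentage points and the log2 kinase to phosphatase ratio by 4.43 to 5.17 with 1 library left out. Replicate numbers were not treated as pairs in the main test. The deviations of same-numbered libraries from their breed means correlated at 0.226, -0.038 and -0.13. Those of differently numbered libraries correlated at -0.263 to 0.287. With 3 animals per breed these values cannot decide whether the numbers pair the animals. With the replicate block, 457 genes were called, 342 of them shared with the 432, and PDK4 had a log2FoldChange of 6.02 (FDR = 0.00390). The cause of these shifts was not tested. The lowest read count of any of the 10 genes was 37, for PDK3 in STH replicate 3.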

Other observations

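Genes known to be induced in fasting or stressed muscle were tested as separate lists, where 1.62% of all tested genes were up-regulated. Of 13 tested PPAR and fasting targets, 5 were up-regulated, with a median log2FoldChange of 1.13 beside 0.02 for all tested genes. TRIM63, a ubiquitin ligase of muscle wasting, had 3392, 3505 and 2696 normalised counts in QHMM and 16746, 60978 and 32659 in STH (log2FoldChange 3.52, edgeR FDR = 0.00489; 2.94 without STH replicate 2). The others called were FBXO32 (2.68, and 1.37 without STH replicate 2), ANGPTL4 (2.13, and 3.01 without QHMM replicate 2), PLIN2 (1.63) and CPT1A (1.33). The most abundant genes of this list that were not called were TXNIP (1.09, edgeR FDR = 0.176), ACADVL (0.23, edgeR FDR = 0.700), HADHB (1.13, edgeR FDR = 0.0848) and HADHA (0.47, edgeR FDR = 0.3135). Of 10 glucocorticoid targets, 5 were up-regulated, with a median of 1.60, namely FKBP5, SESN1, MT2A (2.30, and 3.24 without QHMM replicate 1), CDKN1A (2.28) and ZBTB16 (1.86). Of 9 tested hypoxia targets, 3 were up-regulated, with a median of 0.61 (1.21 without QHMM replicate 1, 0.32 without QHMM replicate 2 and 0.38 without QHMM replicate 3), namely PFKFB3 (3.16), PFKFB4 (2.87, and 2.26 without STH replicate 2) and BNIP3 (1.44), while VEGFA had -1.17 (edgeR FDR = 0.168). DESeq2, edgeR with the replicate block and edgeR without STH replicate 1 each called 1 hypoxia target as down-regulated. With 1 library left out, 1 to 5 of the fasting targets, 3 to 5 of the glucocorticoid targets and 2 to 3 of the hypoxia targets were up-regulated, and the count of fasting targets was 1 without QHMM replicate 1 or QHMM replicate 3. DESeq2 called 8, 6 and 4 of these lists as up-regulated, and limma-trend on every gene above 0 called 2, 3 and 2.

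The enzymes on either side of the pyruvate dehydrogenase step were tested as separate lists, where 1.83% of all tested genes were down-regulated. Of 11 tested pyruvate and acetyl-CoA enzymes 2 were down-regulated, LDHB, the heart-type lactate dehydrogenase subunit, and PC, pyruvate carboxylase, and the median log2FoldChange was -0.95. LDHA and PKM, the most abundant of the list, had -0.73 (edgeR FDR = 0.243) and -1.25 (edgeR FDR = 0.0872). DESeq2 called 5 of the 11 and edgeR without a filter for low counts called 4, all down-regulated. None of the 11 was called by edgeR when QHMM replicate 1 or 2 or STH replicate 2 was left out. In those fits the median was -0.84, -0.85 and -0.93, and 6 of the 11 had an unadjusted edgeR p below 0.05 in each. All 15 citrate cycle genes had a negative log2FoldChange, as did 6026 of the 12506 tested genes. Their median was -0.42 (-0.17 without QHMM replicate 2), and IDH3A and SDHC were down-regulated. Only in the fit without STH replicate 1 was any of the 15 called when a library was left out, and none was with the replicate block. DESeq2 called 3 of the 15, all down-regulated.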
